A study of Mus musculus with 4 samples.

Results

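The left ventricle of mice with pressure overload and trichostatin A treatment (TAC TSA) was set against that of untreated, sham-operated mice (Sham Veh), to ask which gene promoters still differed in histone H3 acetylation from the untreated sham level. The members of the comparison were the promoters whose raw read count averaged at least 10 over the libraries. They numbered 22835 of the 23631 genes with a promoter count, and 2 of the 4 libraries of the series were on its sides. All mice were male C57BL6, aged 10 to 12 weeks. The Sham Veh mice had sham surgery and received the solvent DMSO as vehicle. The TAC TSA mice had transverse aortic constriction, which narrows the aorta and raises the pressure against which the ventricle pumps, and received 0.6 mg of trichostatin A per kg per day in DMSO. Injections were subcutaneous, 2 per day over 4 weeks. The remaining libraries, Sham TSA and TAC Veh, crossed the same surgeries and injections and are given as values beside the comparison. The antibody recognised acetylated histone H3, and the labels do not say how many animals went into a library. They name an earlier deposit for both sham libraries and for neither TAC library, so surgery and origin of the library cannot be told apart.

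Acetylation of the histone H3 tail loosens the hold of nucleosomes on DNA and marks promoters in use. Acetyltransferases add the mark and histone deacetylases (HDACs) remove it, and trichostatin A blocks the zinc-dependent HDACs. An overloaded ventricle enlarges, lays down matrix and returns to fetal genes such as Nppa, Nppb and Myh7, and HDAC inhibitors are known for limiting this growth in mice.

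Each group was 1 library, so no value has a replicate and the pair itself allows no test. Promoter counts summed to 9612616 in Sham Veh and 6842296 in TAC TSA, with a median per promoter kept of 247 and 180. They summed to 9905553 in Sham TSA and 8873302 in TAC Veh. Scaled counts below are divided by TMM factors, which set the bulk of promoters level. A ratio is TAC TSA over Sham Veh on the log2 scale, followed by its exact 95% interval. A promoter was called where it differed at least 1.5-fold and its interval excluded equality. The intervals compare 2 libraries and cover counting error only, since PCR reads without molecular identifiers are not independent molecules.

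The sequences of the promoters that the results turn on are shown because the weak promoters that were higher in TAC TSA had hardly a CpG. Each line gives 250 bases before to 50 bases after the transcription start from RefSeq (build GRCm38.p6, a later build than the mm9 of the counts), 5′ to 3′ on the gene's strand, with every CpG in capitals. Gm20594 (which reached the count minimum only through TAC TSA), Skint5 (a gene of the Skint family) and Olfr1211 (an olfactory receptor) led the promoters that were higher in TAC TSA under each of 3 scalings. Gm13271, Car5b (a mitochondrial carbonic anhydrase) and C1qb (a chain of complement C1q) led those that were lower, and Nppa, Nppb and Myh6 are heart genes.
Gm20594, chr6:79817781-79818080, plus strand: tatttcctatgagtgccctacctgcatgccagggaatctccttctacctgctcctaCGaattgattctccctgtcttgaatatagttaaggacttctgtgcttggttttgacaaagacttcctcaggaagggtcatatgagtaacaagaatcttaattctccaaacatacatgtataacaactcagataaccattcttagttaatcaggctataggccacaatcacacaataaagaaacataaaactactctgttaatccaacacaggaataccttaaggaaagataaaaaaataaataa
Skint5, chr4:113999454-113999753, minus strand: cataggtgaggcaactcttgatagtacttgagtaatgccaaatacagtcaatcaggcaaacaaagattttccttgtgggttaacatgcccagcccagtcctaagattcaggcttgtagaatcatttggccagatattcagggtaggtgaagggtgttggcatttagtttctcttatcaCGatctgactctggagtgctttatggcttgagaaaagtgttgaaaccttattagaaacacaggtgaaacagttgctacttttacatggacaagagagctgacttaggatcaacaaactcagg
Olfr1211, chr2:88930264-88930563, minus strand: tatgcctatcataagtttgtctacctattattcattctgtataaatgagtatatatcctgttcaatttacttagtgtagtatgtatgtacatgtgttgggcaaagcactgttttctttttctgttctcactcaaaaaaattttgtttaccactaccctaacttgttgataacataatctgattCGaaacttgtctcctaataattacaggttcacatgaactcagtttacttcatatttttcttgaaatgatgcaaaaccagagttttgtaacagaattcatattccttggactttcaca
Gm13271, chr4:88754618-88754917, plus strand: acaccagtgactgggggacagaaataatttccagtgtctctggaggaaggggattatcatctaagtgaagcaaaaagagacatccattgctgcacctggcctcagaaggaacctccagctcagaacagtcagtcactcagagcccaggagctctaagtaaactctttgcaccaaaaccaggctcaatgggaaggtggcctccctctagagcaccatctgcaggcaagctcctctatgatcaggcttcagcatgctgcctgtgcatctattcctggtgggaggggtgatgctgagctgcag
Car5b, chrX:164027961-164028260, minus strand: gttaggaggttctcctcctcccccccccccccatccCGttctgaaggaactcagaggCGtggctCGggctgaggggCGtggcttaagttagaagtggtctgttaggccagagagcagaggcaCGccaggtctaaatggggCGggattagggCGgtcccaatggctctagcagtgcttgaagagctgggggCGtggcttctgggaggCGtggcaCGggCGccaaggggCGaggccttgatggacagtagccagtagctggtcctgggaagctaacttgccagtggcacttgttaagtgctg
C1qb, chr4:136886151-136886450, minus strand: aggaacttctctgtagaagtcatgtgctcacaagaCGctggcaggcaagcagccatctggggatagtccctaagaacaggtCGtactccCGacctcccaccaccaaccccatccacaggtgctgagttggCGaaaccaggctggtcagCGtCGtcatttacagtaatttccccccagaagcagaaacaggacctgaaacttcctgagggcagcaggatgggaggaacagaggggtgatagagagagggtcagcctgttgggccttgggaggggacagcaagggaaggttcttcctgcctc
Nppa, chr4:148000472-148000771, plus strand: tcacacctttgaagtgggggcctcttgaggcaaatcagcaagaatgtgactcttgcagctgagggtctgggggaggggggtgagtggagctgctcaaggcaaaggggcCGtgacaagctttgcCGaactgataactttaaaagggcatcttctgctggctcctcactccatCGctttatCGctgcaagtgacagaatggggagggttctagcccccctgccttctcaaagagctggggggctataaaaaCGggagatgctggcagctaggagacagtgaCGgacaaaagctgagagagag
Nppb, chr4:147985650-147985949, plus strand: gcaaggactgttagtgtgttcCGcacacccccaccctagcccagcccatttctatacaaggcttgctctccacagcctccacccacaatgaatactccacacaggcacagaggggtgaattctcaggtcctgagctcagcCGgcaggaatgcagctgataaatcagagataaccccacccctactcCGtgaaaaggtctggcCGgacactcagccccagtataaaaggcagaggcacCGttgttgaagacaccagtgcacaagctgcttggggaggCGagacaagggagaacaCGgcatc
Myh6, chr14:54966558-54966857, minus strand: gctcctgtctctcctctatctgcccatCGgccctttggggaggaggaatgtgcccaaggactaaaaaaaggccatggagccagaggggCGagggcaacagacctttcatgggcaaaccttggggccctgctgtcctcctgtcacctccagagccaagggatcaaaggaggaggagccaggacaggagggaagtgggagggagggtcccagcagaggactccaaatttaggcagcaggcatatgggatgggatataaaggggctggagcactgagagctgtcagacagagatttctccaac
The 3 higher ones held 1 CpG each, and Gm13271 held none. C1qb held 6, Car5b 12, Nppa 6, Nppb 7 and Myh6 2, against a median of 15 over the protein-coding promoters with a RefSeq window. The largest ratio among well-covered promoters belonged to a microRNA gene, whose mature sequence is given with its seed (bases 2 to 8) in capitals.
mmu-miR-101c, chr9:3038680-3038698, minus strand: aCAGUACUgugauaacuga

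Across all promoters the TAC TSA library was above Sham Veh at weak promoters and slightly below it at strong ones. Of the 22835 promoters, 1467 (6.42%) were called higher and 16 (0.0701%) lower. Of the higher ones 1425 had a mean count below 100, and among the 15669 promoters with a mean of at least 100 only 42 were higher and 4 lower. By mean count, the weakest decile of promoters (10 to 28.2 counts) had a median ratio of 0.73 and the next 0.43. The median was 0.01 in the fifth decile and −0.11 in the highest (588 to 1622 counts). The same weak decile stood at 0.30 in TAC Veh and at 0.06 in Sham TSA over Sham Veh. These pairs divide by the same Sham Veh library, so the 3 sets of ratios are not independent.

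**Figure D1:**
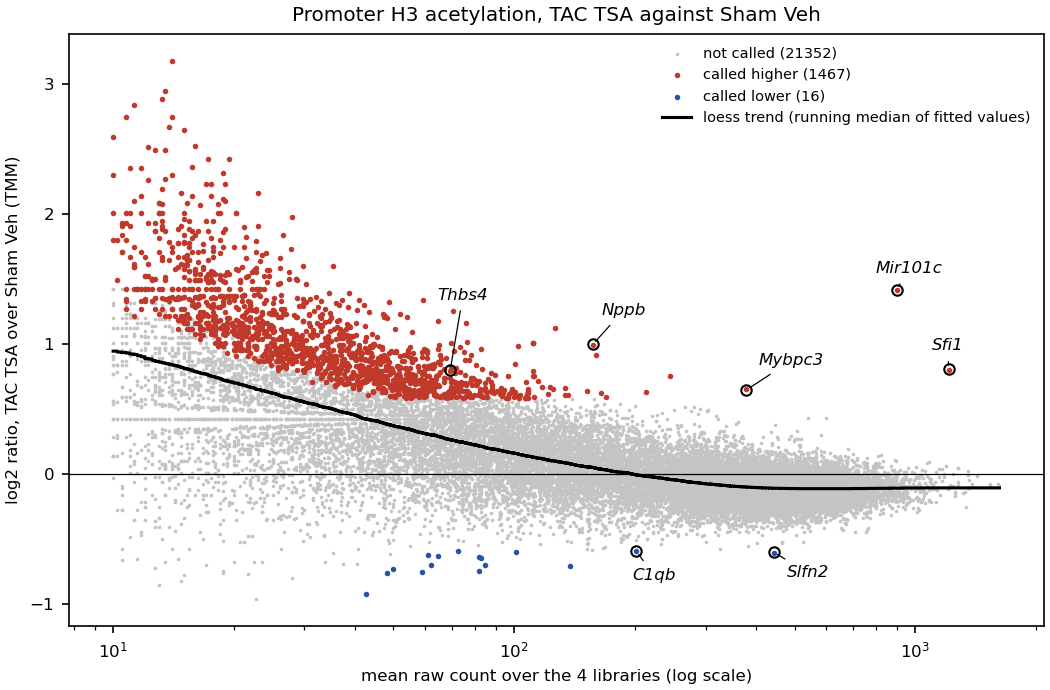
Log2 ratio of TAC TSA over Sham Veh (vertical) against the mean raw count over the 4 libraries (horizontal, log scale), 1 point per promoter. The 1467 promoters called higher crowd at low counts, the loess trend (black line) falls from left to right, and Mir101c, Sfi1, Nppb and Mybpc3 lie above it at higher counts while C1qb and Slfn2 lie below.

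Promoters of odorant and pheromone receptors, genes of sensory neurons that serve here as a measure of unspecific reads, moved with this trend. The 1455 of them took up 0.42% of the Sham Veh counts, with an exact binomial 95% interval of 0.415 to 0.425. Their share was 0.427% in Sham TSA and 0.505% in TAC Veh, and 0.677% (0.67 to 0.685) for the TAC TSA library. Of the 1274 that passed the count minimum, 372 (29.2%) were called higher and none lower, with a median ratio of 0.72. Of these 372, 26 reached the count minimum only through TAC TSA, their mean over the other 3 libraries being below 10. Families of other weak promoters had medians of 0.54 for 38 taste receptors, 0.54 for 107 keratin genes, 0.50 for 49 defensins, 0.31 for 57 clustered protocadherins, 0.31 for 62 serpins and 0.24 for 99 cytochrome P450 genes. The 39 Hox cluster promoters stood at 0.01, with 1 called higher (2.56%, against 6.42% of all promoters). Families that every cell uses were near the bulk, at −0.09 for 82 cytosolic ribosomal proteins, −0.08 for 78 mitochondrial ribosomal proteins and −0.11 for 39 proteasome subunits. The part of unspecific reads in the ratios of weak promoters was not tested.

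How the libraries are set level therefore decides the counts. A loess scaling, which removes the trend on mean count, left 133 promoters higher (0.582%) and 226 lower (0.99%). Its receptor median was 0.03. Scaling on the receptor promoters set the summed counts of the 1274 kept ones level. Of these receptors, 37 reached the count minimum only through TAC TSA, and whether their reads are unspecific was not tested. This scaling shifted the median of all promoters to −0.63 and left 103 higher (0.451%) and 12861 lower (56.3%). All 28 gene list medians lay below 0 there, from −0.88 for interferon and class I genes to −0.47 for adult sarcomere and skeletal muscle genes, so directions given below hold relative to the bulk of promoters. Under all 3 scalings 64 promoters were called higher, of which 24 were receptors and 61 had a mean count under 50, and 15 were called lower. By the interval alone, 2059 promoters (9.02%) lay above and 2394 (10.5%) below no difference with TMM scaling, and 865 (3.79%) and 923 (4.04%) with loess scaling.

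The weak promoters called higher were poor in CpG. The comparison was limited to protein-coding genes, since RefSeq windows covered 80% of them but 74.9% of all promoters kept, a restriction made after that coverage was seen. Among the 15725 with a window the median CpG ratio (observed over expected) was 0.611 and the median GC content 57.3%. In the 939 called higher the medians were 0.165 and 43.7%, with 2 CpG per window. The share called higher was 17.9% of 2938 promoters with a CpG ratio under 0.2, then 10.1%, 3.63%, 1.53% and at last 0.697% of 4590 promoters with a ratio of 0.8 and over. Mean counts ran the other way, from a median of 38.2 in the first of these classes to 433 in the last. With loess scaling the median ratio lay between −0.01 and 0.01 in each of the 5 classes. No gradient of the median over CpG classes thus remained once the trend on mean count was removed. The share called higher in each class was not counted with loess scaling. The separate parts of strength and CpG content were not tested.

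**Figure D2:**
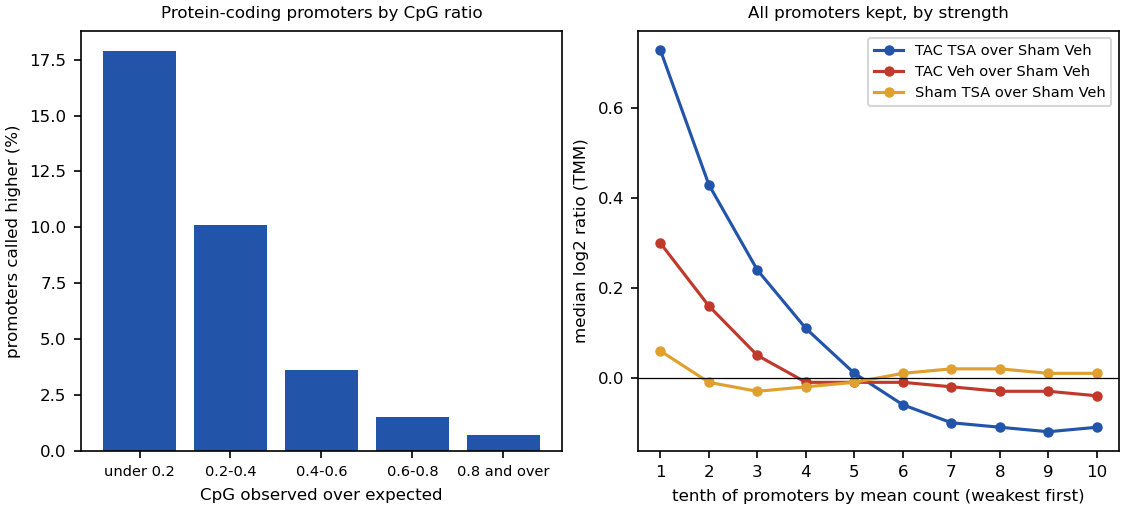
Left, percent of protein-coding promoters called higher in TAC TSA over Sham Veh, by CpG ratio of the 300 bases around the start, falling from 17.9% to 0.697%. Right, median log2 ratio over Sham Veh in each decile of promoters by mean count for TAC TSA, TAC Veh and Sham TSA, where the TAC TSA line runs from 0.73 to −0.11.

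Short motifs were counted in the same windows, with no matching for base content. The TATA box letters TATAAA, searched on both strands, stood in 31% of the windows called higher and in 12.7% of all 15725. The GATA letters AGATAA stood in 19.5% and 9.62%, the AP-1 letters TGANTCA in 13.2% and 7.05%, and the MEF2 element in 7.45% and 2.68%. The cAMP response element TGACGTCA, which holds a CpG, stood in 1.17% and 2.51%. The CCAAT letters, in 40.8% and 38.7%, and the MCAT letters CATTCC, in 16.1% and 13%, hardly differed. The E-box letters CANNTG stood in 78.1% and 67.8%, the NKE letters AAGTG in 51.1% and 44.8%, and the CArG box in 2.66% and 1.48%. The MEF2 and TATA letters can overlap, and a match in these windows says nothing of a bound factor. The Nppb window printed above held the TATA and GATA letters and the MCAT letters, and the Myh6 window held the TATA and MCAT letters. Both windows also held the E-box letters, and the Myh6 window held the NKE letters.

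Strong promoters had nearly equal scaled counts in both libraries. In the upper part of promoters by mean count (11420 with at least 228), the ratio had a median of −0.10 and an SD of 0.13, where counting error alone gives 0.11. Of these promoters 96.5% lay within 1.25-fold of the sham level, 4 were called higher and 1 lower. The higher ones were Mir101c, Sfi1, Mybpc3 and 2700054A10Rik, and the lower one was Slfn2. In TAC Veh over Sham Veh 6 of the same promoters were higher and 43 lower, with an SD of 0.15 (1.93% of all promoters were called higher there and 0.582% lower).

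The only test across libraries was an additive fit of surgery and drug over all 4 (edgeR's quasi-likelihood method, with p adjusted over all promoters by Benjamini-Hochberg and a threshold of 0.05). Its sum of both effects estimates the TAC TSA against Sham Veh difference, and its spread comes from the surgery by drug interaction, taken as 1 value for all promoters. It called 10 promoters higher (0.0438%) and none lower (0%), with 1152 and 481 at an unadjusted p under 0.05. limma-voom called 12 and 0 (1213 and 500 unadjusted), and the DESeq2 Wald test 0 and 0 (30 and 1 unadjusted). The 10 were Mir101c, Sfi1, Nppb, Fstl4, Ugt1a1, 2700054A10Rik, 4930548K13Rik, Gm20594, Olfr196 and Olfr1211. Of these, Gm20594 reached the count minimum only through TAC TSA. Without a filter on mean count the edgeR fit called only Mir101c, Sfi1 and Fstl4.

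The Mir101c promoter (NR_039546) on chromosome 9 differed most among well-covered promoters. Its scaled count was 582 in Sham Veh and 637 in Sham TSA, and 967 in TAC Veh and 1561 in TAC TSA. Both TAC libraries were above both sham libraries, and TAC TSA was highest. The ratio was 1.42 (1.28 to 1.56), a 2.68-fold difference, with an adjusted p of 4.3e-31 in the edgeR fit. It was 1.53 with loess scaling and 0.80 with receptor-promoter scaling, the one promoter of mean count at least 100 still called higher there. miR-101c belongs to the miR-101 family, and the seed printed above is that of miR-101c itself. Mir101c was the first gene kept on its chromosome in RefSeq order, and its neighbour 4930433N12Rik stood at 0.05.

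Sfi1 (NM_030207), which encodes a centrin-binding protein of the centrosome, had 960 in Sham Veh and 1024 in Sham TSA, and 1275 in TAC Veh and 1679 in TAC TSA. The order of the libraries was that of Mir101c. The ratio was 0.81 (0.69 to 0.92; edgeR adjusted p = 6.1e-09) and 0.91 with loess scaling, but 0.18 and not called with receptor-promoter scaling. It was the second of 1773 genes kept on chromosome 11, between Pisd-ps1 (−0.10) and Eif4enif1 (0.07). These were the only 2 promoters that passed the edgeR test with loess scaling, and the only 2 when the fit was limited to a mean count of at least 100. Whether either promoter shares reads with repeated sequence was not tested.

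Among the fetal genes Nppb, which encodes brain natriuretic peptide, was farthest from the sham level. Its promoter (NM_008726, chromosome 4) had a scaled count of 108 in Sham Veh and 147 in Sham TSA, and 168 in TAC Veh and 216 in TAC TSA. All 3 other libraries were above Sham Veh. The ratio was 1.00 (0.65 to 1.35), a 2.00-fold difference (edgeR adjusted p = 0.0489), and 0.94 with loess scaling. With receptor-promoter scaling it was 0.37 and not called, and the edgeR test was not passed with loess scaling, without a filter on counts or with a mean count of at least 100. Its neighbour Nppa, the atrial natriuretic peptide, had 99.2, 78.2, 134 and 130 in the same order, with both TAC libraries above both sham libraries and a ratio of 0.39 (−0.01 to 0.79). The beta myosin heavy chain Myh7 had 199, 216, 250 and 277 and a ratio of 0.47 (0.20 to 0.75), short of 1.5-fold. Skeletal actin Acta1 stood at 104 in Sham Veh, 177 in TAC Veh and 125 in TAC TSA (0.27, −0.14 to 0.67). Over the 31 fetal and hypertrophy promoters the median was 0.06 and Nppb was the member called, 3.23% against 6.42% of all promoters.

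**Figure D3:**
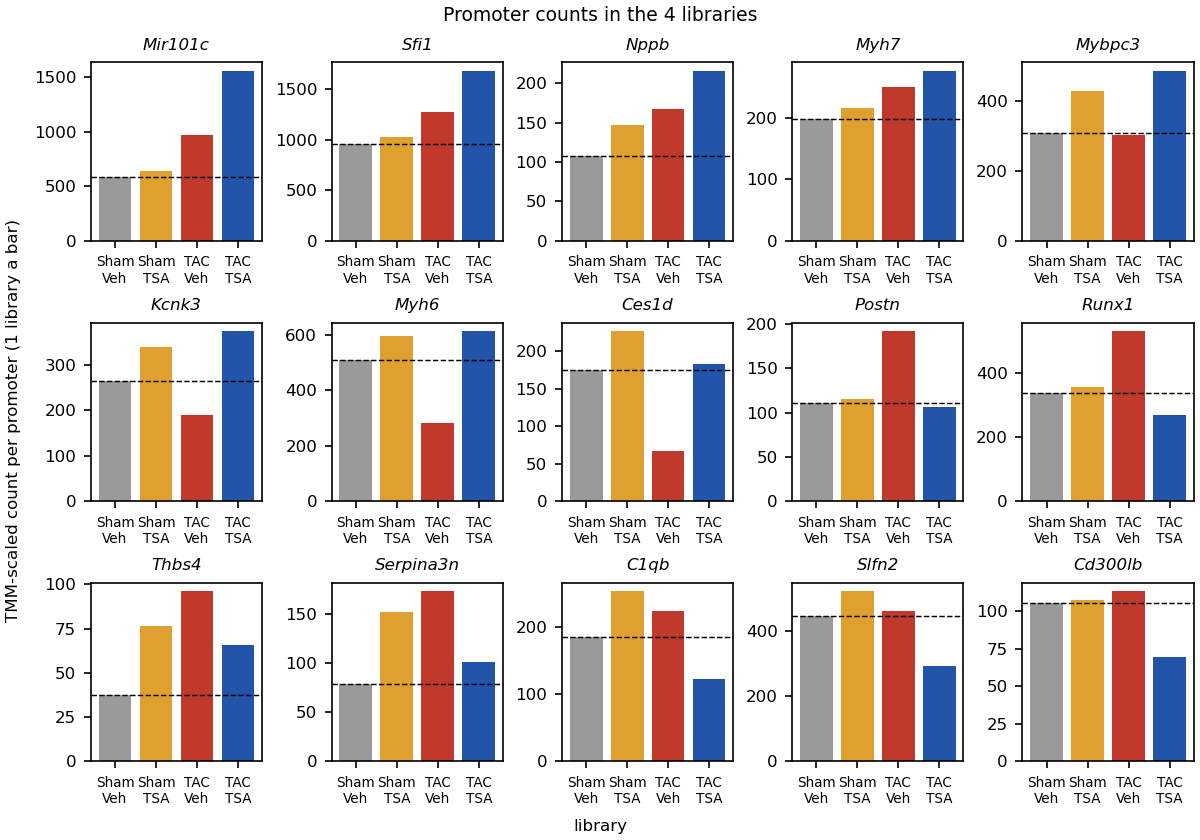
TMM-scaled promoter counts (vertical, from 0) of 15 genes in the 4 libraries, 1 library a bar, with the Sham Veh level dashed. Mir101c, Sfi1, Nppb and Myh7 are highest in TAC TSA, Myh6 and Ces1d are low in TAC Veh and at or above the dashed line in TAC TSA, and C1qb, Slfn2 and Cd300lb are lowest in TAC TSA.

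Promoters of the contractile apparatus stood at or slightly above the sham level in TAC TSA. All 24 adult sarcomere promoters had a ratio above 0, from 0.03 for Myoz2 to 0.65 for Mybpc3, with a median of 0.15. Of their intervals 9 of 24 lay wholly above 0 (9.02% of all promoters did), and 15 of 24 with loess scaling (3.79% of all promoters), with a median of 0.24. The list median was −0.42 in TAC Veh and 0.15 in Sham TSA over the same Sham Veh library. With receptor-promoter scaling it was −0.47, against −0.63 for all promoters. In tissue of mixed cells, a change in the number of cells of a type and a change in acetylation per cell cannot be told apart.

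Mybpc3 (NM_008653), cardiac myosin-binding protein C, was the sarcomere promoter called higher (4.17%, against 6.42% of all promoters). It had 310 in Sham Veh and 429 in Sham TSA, and 304 in TAC Veh and 487 in TAC TSA, a ratio of 0.65 (0.44 to 0.87). Both TSA libraries were above both vehicle libraries. With loess scaling the ratio was 0.76, and with receptor-promoter scaling it was 0.03 and not called. The edgeR adjusted p was 0.0916, and 0.0472 with DESeq2 size factors in the same test. The alpha myosin heavy chain Myh6 had 508, 598, 283 and 614 in the same order and a ratio of 0.27 (0.10 to 0.45). Only TAC Veh was below the sham level there. Titin, Ttn, had 256, 337, 194 and 336 (0.39, 0.15 to 0.64), and cardiac actin Actc1 had 364, 398, 201 and 445 (0.29, 0.08 to 0.50). TAC Veh was the lowest library for both.

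The 12 cardiomyocyte markers, most of which appear in other lists too, had a median ratio of 0.13, and none was called. Their median mean count was 381, against 18.8 for receptor promoters and 228 for all promoters kept. All 12 lay above 0. In TAC Veh 8 of the 12 were called lower (0.582% of all promoters were), with a median of −0.61. Of 32 calcium handling and ion channel promoters none was called, with a median of 0.06. The highest was the background potassium channel Kcnk3, with 264 in Sham Veh and 340 in Sham TSA, and 191 in TAC Veh and 375 in TAC TSA (0.51, 0.27 to 0.74). It passed 1.5-fold with loess scaling (0.59). The calcium pump Atp2a2 (0.01, −0.15 to 0.17), its inhibitor phospholamban, Pln (0.02, −0.20 to 0.24), and the calcium release channel Ryr2 (0.07, −0.19 to 0.32) lay at the sham level within counting error. The inwardly rectifying channel Kcnj3 had 161 in Sham Veh, 78.4 in TAC Veh and 209 in TAC TSA (0.38, 0.06 to 0.69).

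Among 25 cardiac transcription factors the median was −0.02. Hand1, a factor of the developing left ventricle, was the member called higher (4%, against 6.42% of all promoters). It stood at 0.59 (0.12 to 1.07) on scaled counts of 68 and 103, but at −0.03 with receptor-promoter scaling. Tbx5 was at 0.13 (−0.10 to 0.37) and Nkx2-5 at 0.14 (−0.09 to 0.37). Of 20 skeletal muscle promoters 4 were called higher (20%, against 6.42% of all promoters), the fast myosin Myh1 (0.82), the regulatory factors Myf6 (0.77) and Myf5 (0.66) and the fast troponin Tnnc2 (0.67). All 4 were weak to moderate promoters, and none was called with loess scaling. The 15 atrial promoters had a median of 0.14 with none called.

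Metabolic promoters lay at the sham level. The medians were −0.05 for 36 fatty acid genes, −0.07 for 32 oxidative phosphorylation genes and −0.02 for 25 glycolysis genes, with none called. The carboxylesterase Ces1d, a lipid hydrolase, had 175 in Sham Veh and 227 in Sham TSA, and 66.6 in TAC Veh and 183 in TAC TSA. TAC TSA was thus level with Sham Veh (0.07, −0.25 to 0.39) and TAC Veh stood alone below. The lipid sensor Ppara was at 0.13 (−0.07 to 0.32) and the fatty acid transporter Cd36 at 0.08 (−0.13 to 0.29). The uncoupling protein Ucp3 stayed below the sham level, with 344 in Sham Veh and 273 in Sham TSA, and 188 in TAC Veh and 278 in TAC TSA (−0.30, −0.55 to −0.06), without reaching 1.5-fold. The glucose transporter Slc2a4 was at 0.28 (0.08 to 0.48).

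Matrix promoters also stood near the sham level, with a median of −0.04, against 0.25 in TAC Veh. Of 43 kept, 1 member was called higher (2.33%, against 6.42% of all promoters). Periostin, Postn, a matrix protein of activated fibroblasts, had 111 in Sham Veh and 115 in Sham TSA, and 192 in TAC Veh and 106 in TAC TSA (−0.06, −0.48 to 0.35). TAC Veh was the highest library, and the others lay within counting error of Sham Veh. Thrombospondin 4, Thbs4, had 37.7, 76.4, 96 and 65.5 in the same order, so that all 3 other libraries were above Sham Veh. Its ratio was 0.80 (0.18 to 1.42) on raw counts of 41 and 53, and 0.41 and not called with loess scaling. Collagen Col1a1 was at 0.22 (−0.05 to 0.49). The transcription factor Runx1 had 337, 355, 530 and 267, lowest in TAC TSA, with a ratio of −0.34 (−0.59 to −0.09). The 16 fibroblast markers had a median of 0.03 with none called.

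**Figure D4:**
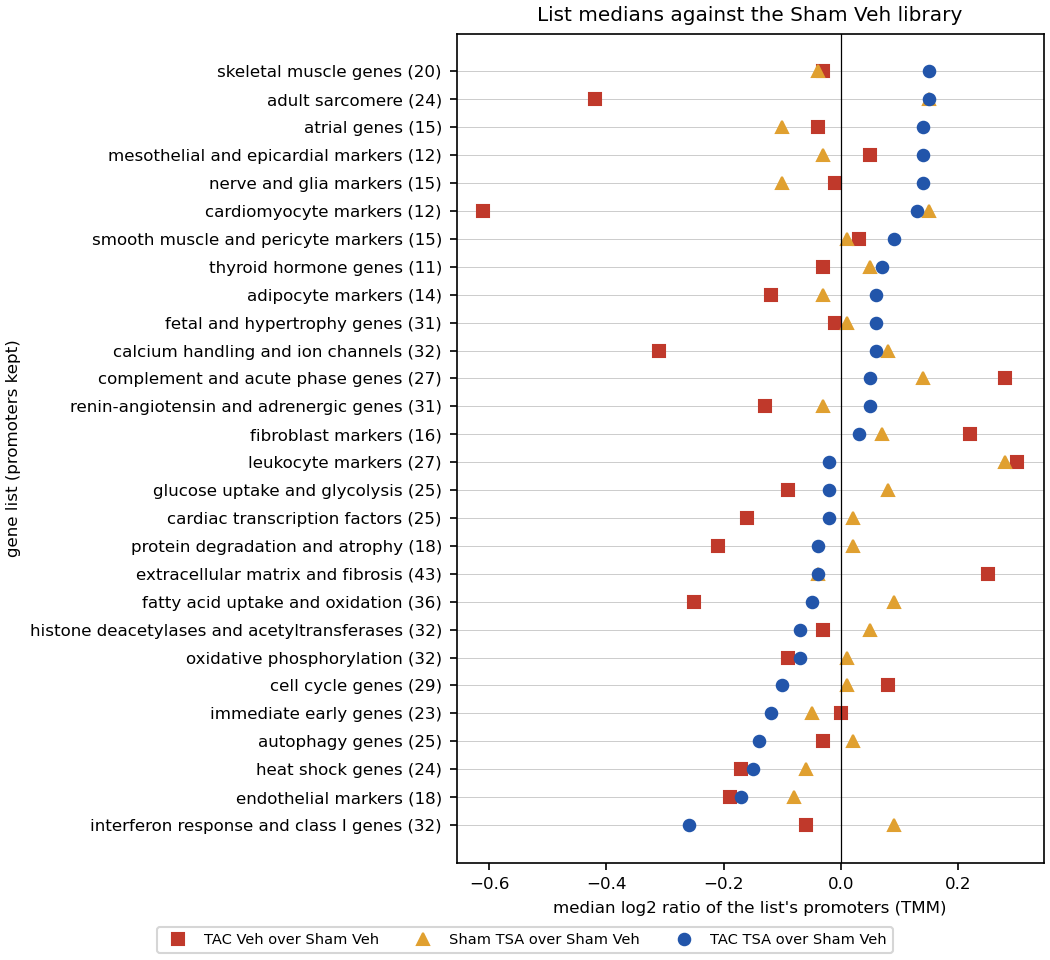
Median log2 ratio (horizontal) of each of 28 gene lists (vertical, number of promoters in brackets) over the Sham Veh library for TAC TSA, TAC Veh and Sham TSA. The TAC TSA medians run from −0.26 (interferon and class I genes) to 0.15 (adult sarcomere and skeletal muscle genes), and the TAC Veh medians from −0.61 to 0.30, while with receptor-promoter scaling (not drawn) every TAC TSA median lay below 0.

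Interferon response and class I antigen presentation promoters were the list lowest in TAC TSA. Of 32 promoters 31 had a ratio below 0, 18 intervals lay wholly below 0 (10.5% of all promoters did), and the median was −0.26. Promoters of the upper part by mean count stood at −0.10. With loess scaling the median was −0.17, with 8 intervals below 0 (4.04% of all promoters) and none above. The medians were −0.06 in TAC Veh and 0.09 in Sham TSA over the same library. The summed scaled count of the list was 14033 in Sham Veh and 14660 in Sham TSA, and 13617 in TAC Veh and 11767 in TAC TSA.

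The member called was Slfn2 (NM_011408), a Schlafen gene of lymphocyte quiescence. It had 446 in Sham Veh and 523 in Sham TSA, and 464 in TAC Veh and 293 in TAC TSA. The 3 other libraries were all well above TAC TSA. The ratio was −0.60 (−0.84 to −0.38) with TMM scaling and −0.51, short of 1.5-fold, with loess scaling, and the edgeR adjusted p was 0.375. The class I gene H2-T24 followed at −0.58 (−0.84 to −0.32), then the immunoproteasome subunit Psmb9 (−0.45, −0.61 to −0.29) and the peptide transporter Tap1 (−0.43, −0.59 to −0.27). Psmb9 and Tap1 had near-equal counts in every library, and as neighbours may share reads, so they are not independent. The interferon-induced GTPases Iigp1 (−0.40) and Igtp (−0.34) and the factor Irf9 (−0.29) had intervals below 0. The antiviral synthetase gene Oas1g and the guanylate-binding gene Gbp10 are not on the list and were named by rule. Both were among the 15 promoters called lower under all 3 scalings. Oas1g had 88.2 in Sham Veh and 56.9 in TAC TSA (−0.63, −1.17 to −0.11), and Gbp10 had 70.7 and 42.0 (−0.75, −1.38 to −0.15). Their relatives on the list lay nearer 0 and were not called, namely Oas1a (−0.11), Oas2 (−0.28), Gbp2 (−0.21) and Gbp3 (−0.31).

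**Figure D5:**
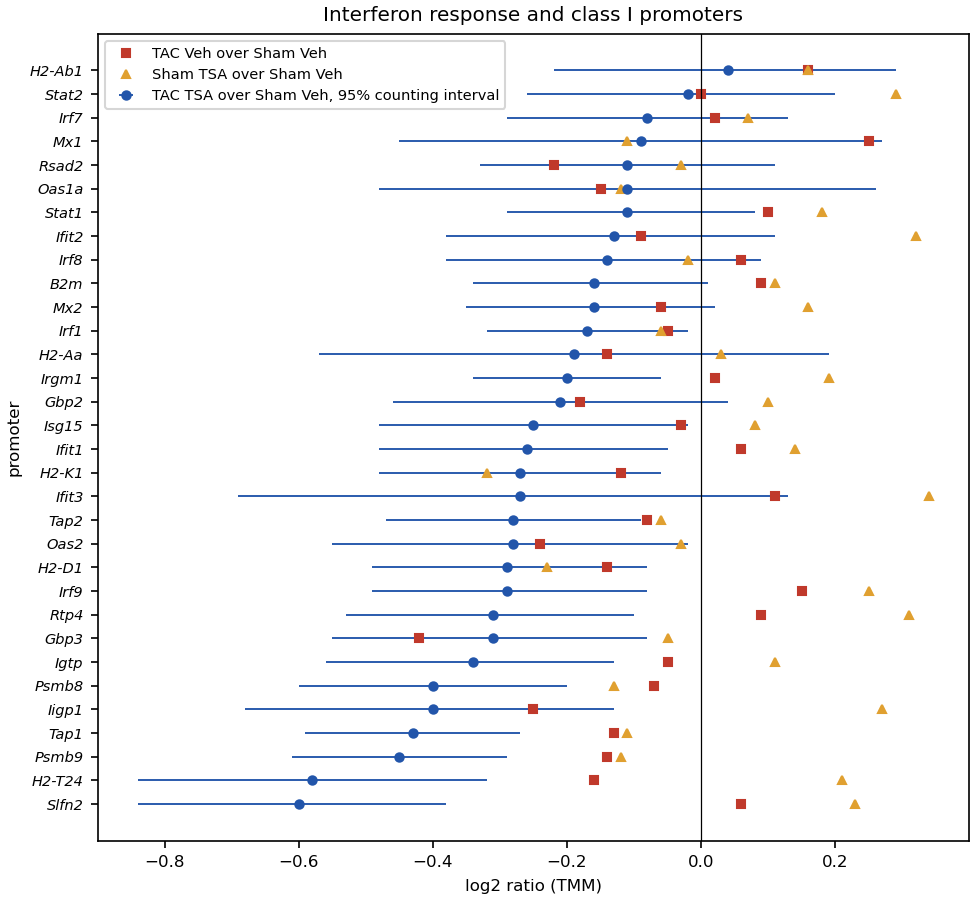
Log2 ratio (horizontal) of the 32 interferon response and class I promoters, with TAC TSA over Sham Veh as circles with 95% counting intervals, and TAC Veh and Sham TSA over Sham Veh as squares and triangles. The circles lie left of 0 for 31 promoters, from −0.60 for Slfn2 to 0.04 for H2-Ab1.

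Leukocyte markers as a list were at the sham level, with a median of −0.02 over 27 promoters, where TAC Veh stood at 0.30 and Sham TSA at 0.28. C1qb (NM_009777), made by macrophages, was called lower. It had 184 in Sham Veh and 252 in Sham TSA, and 223 in TAC Veh and 122 in TAC TSA. TAC TSA was the one library below Sham Veh. The ratio was −0.59 (−0.95 to −0.23) and −0.65 with loess scaling. At 1.5-fold C1qb lay at the threshold itself with TMM scaling, and it was called under all 3 scalings, with an edgeR adjusted p of 0.693. Its partner chains C1qa (0.08) and C1qc (−0.01) were level. The myeloid receptor Cd300lb, with 105, 107, 113 and 69.2 in the same order, was also called lower under all 3 scalings (−0.60, −1.09 to −0.12). The pan-leukocyte marker Ptprc was at −0.14 (−0.69 to 0.40). The integrin Itgal, not on the list and named after its value was seen, was called higher at 0.85 (0.43 to 1.28). With receptor-promoter scaling Itgal was not called (0.23). The summed scaled count of the 27 leukocyte markers was 4022 in Sham Veh and 4708 in Sham TSA, and 4765 in TAC Veh and 3925 in TAC TSA. Its part in the lower interferon list was not tested.

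The acute-phase protease inhibitor Serpina3n had 79 in Sham Veh and 152 in Sham TSA, and 173 in TAC Veh and 101 in TAC TSA (0.36, −0.09 to 0.81). Of 27 complement and acute-phase promoters 2 were called higher, the pentraxin Apcs (1.38, 0.47 to 2.35, on raw counts of 16 and 31) and A2m (0.71, 0.12 to 1.30), and 1, C1qb, lower. Both calls of higher ended with loess scaling (0.72 and 0.35) and with receptor-promoter scaling (0.76 and 0.08), and 2 of 27 is near the 6.42% of all promoters. Of 18 endothelial markers 7 had intervals below 0 (10.5% of all promoters did), with a median of −0.17 in TAC TSA and −0.19 in TAC Veh. With loess scaling the TAC TSA median was −0.06, with 2 of 18 intervals below 0 (4.04% of all promoters). The tight-junction gene Cldn5 (−0.33, −0.50 to −0.17) and the sialomucin Emcn (−0.43, −0.71 to −0.16) were lowest. The factor Erg was the marker called higher (5.56%, against 6.42% of all promoters). Its ratio was 0.59 (0.02 to 1.17) on raw counts of 50 and 56, but −0.03 with receptor-promoter scaling.

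Heat shock promoters had a median of −0.15, with 10 of 24 intervals below 0 (10.5% of all promoters) and none called. Hspa1a had 226 in Sham Veh and 150 in Sham TSA, and 182 in TAC Veh and 167 in TAC TSA (−0.44, −0.75 to −0.13), and its neighbour Hspa1l had almost equal counts (−0.49). Sham Veh was the highest library for both. Hspd1 and Hspe1 (both −0.29) also had near-equal counts in every library. The members of such pairs may share reads, so they are not independent in the interval counts of this list. Immediate early promoters had a median of −0.12 with 9 of 23 intervals below 0 (the same 10.5% of all promoters), among them Fos (−0.29, −0.45 to −0.13). Both lists are strong promoters, and with loess scaling their medians were −0.04 and −0.02, with 6 of 24 heat shock and 3 of 23 immediate early intervals below 0 (4.04% of all promoters). The 32 promoters of HDACs and acetyltransferases, the enzymes of the mark itself, had a median of −0.07, from Kat2b (−0.35, −0.54 to −0.15) to Hdac6 (0.36, 0.04 to 0.68), with none called. Kat2b stood at 0.00 when its RefSeq ID with the lowest count was used. Cell cycle (−0.10), autophagy (−0.14) and protein degradation lists (−0.04) had no member called either.

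Medians of the lists not yet given were 0.09 for smooth muscle and pericyte, 0.14 for nerve and glia, 0.06 for adipocyte and 0.14 for mesothelial markers, and 0.05 for renin-angiotensin and adrenergic genes, with none called. Of 11 thyroid hormone genes (0.07) the carrier Ttr was called higher (0.67, 0.10 to 1.24), where 6.42% of all promoters were. It was not called with loess (0.33) or receptor-promoter scaling (0.04). The deiodinase Dio2 had 89.1 in Sham Veh and 112 in Sham TSA, and 179 in TAC Veh and 116 in TAC TSA (0.38, −0.04 to 0.81).

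Other promoters higher in TAC TSA at moderate counts were chosen after their values were seen, except those from the edgeR fit. Fstl4, a follistatin-like gene, had 90 in Sham Veh and 120 in Sham TSA, and 113 in TAC Veh and 197 in TAC TSA (1.13, 0.75 to 1.5; edgeR adjusted p = 0.0333). Ugt1a1, which conjugates bilirubin, had 136, 120, 148 and 257 (0.92, 0.61 to 1.23; edgeR adjusted p = 0.0489). TAC TSA was the highest library for both, and for Fstl4 the Sham TSA library also lay above Sham Veh (0.41, 0.02 to 0.80). Neither Fstl4 (0.50) nor Ugt1a1 (0.30) was called with receptor-promoter scaling. The tubulin gene Tuba3b (0.99), the kisspeptin gene Kiss1 (0.79), the cold channel Trpm8 (0.63), the histidine lyase Hal (0.72), Tmem26 (0.76) and Tmem232 (0.76) were called with TMM and loess scaling, and none of them with receptor-promoter scaling.

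The promoters called higher under every scaling were mostly weak. Gm20594, the first by the naming rule, had raw counts of 4 in Sham Veh and 11 in Sham TSA, and 14 in TAC Veh and 27 in TAC TSA (3.18, 1.66 to 5.16). Sham Veh was the lowest library there. Gm20594 reached the count minimum only through TAC TSA, since its mean over the other 3 libraries was below 10, and so did 2 more of the 64 promoters called higher under every scaling and, in all, 36 of the 1467 called higher with TMM scaling. Skint5 had 4, 14, 13 and 23 (2.95, 1.4 to 4.94), and Olfr1211 had 6, 16, 10 and 28 (2.65, 1.35 to 4.21). The pheromone receptor Vmn1r72 (2.89), the taste receptor Tas2r122 (2.68), Olfr196 (2.53), Olfr1469 (2.43), Olfr769 (2.32), Gm4850 (2.43), 4930548K13Rik (2.17) and the secretoglobin Scgb2b3 (1.98) completed the 12 with Mir101c. In all of them but Mir101c the Sham Veh raw count was at most 14.

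The lower side was led by Gm13271, with 155 in Sham Veh and 138 in Sham TSA, and 147 in TAC Veh and 95.2 in TAC TSA (−0.71, −1.11 to −0.31). Car5b on the X chromosome was next and had 106, 72.8, 78.4 and 63.0 (−0.74, −1.25 to −0.26), so that Sham Veh was the highest library. It was also the one promoter lower in the edgeR fit with receptor-promoter scaling (log2 fold change −1.35, adjusted p = 0.0437). The GABA receptor subunit Gabrb2 (−0.64), the monooxygenase Fmo6 (−0.62), Snora23 (−0.70), Mir1933 (−0.92), Gm20110 (−0.73) and 4933406J10Rik (−0.70) completed the 12 with genes given above. Their raw counts in Sham Veh lay between 56 and 107.

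The median of the X chromosome lay below those of the autosomes with loess scaling but not with TMM scaling. With loess scaling 50 of its 814 promoters (6.14%) were called lower, against 175 of 22016 autosomal ones (0.795%). Its loess median was −0.14, where single autosomes lay between −0.03 and 0.01. The median mean count was 81.8 on X, against 228 for all promoters kept. With TMM scaling the X median was 0.03 and the autosomal one −0.01. There 48 of the 814 were called higher and 3 lower (6.42% and 0.0701% of all promoters). At a mean count of at least 100, both TMM medians were −0.08. The part of the lower counts on X in the loess difference was not tested. Among promoters of mean count at least 100, 4 of 390 on X and 15 of 15275 on autosomes (0.0982%) were lower with loess scaling, with loess medians of −0.09 and −0.00. The 4 on X, named after their values were seen, were Slc35a2 (−0.62), Gab3 (−0.59), Lage3 and Xk.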

How the data were processed

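Acetylated histone H3 was profiled by ChIP-seq in 4 left ventricle libraries, 1 per group. The authors deposited a table of raw counts, in whole reads and with no normalisation, for the promoter of every RefSeq transcript. The tools listed in the submitters' processing notes are BWA 0.5.9 and MACS 1.4.1, and the build is mm9. Not given in the sources used here were the promoter window, counter, strand setting and treatment of duplicates, so overlapping, antisense and near-identical genes may share reads. The deposited region lists hold no list for this pair and were not used, and 0 columns of per-sample values were left unused. No 2 libraries held identical values.

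Of 31594 RefSeq IDs 31115 (98.5%) matched a symbol of the RefSeq GRCm38.p6 tables, used for names, gene order and sequences. The 479 unmatched held 1.11% of counts and were left out. For each gene the ID of highest mean count stood for it, and 796 genes averaging under 10 were dropped. Of the 22835 kept, 17109 had a promoter window.

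Libraries were scaled by TMM (edgeR 4.0.16, R 4.3.3). Ratios had exact conditional (Clopper-Pearson) 95% intervals. The loess scaling used a span of 0.4. The additive fit was the edgeR quasi-likelihood test, with 1 residual degree of freedom, a common biological coefficient of variation of 0.0608 and 1 spread for all promoters, so p-values ignore the interaction of the single promoter. Alternatives were limma-voom (limma 3.58.1) and DESeq2 1.42.0. Other steps ran in Python 3.11.15 (statsmodels 0.14.6, scipy 1.17.1, pandas 2.3.3, numpy 2.4.6, matplotlib 3.10.9).

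The promoters and the 28 gene lists were chosen with earlier results of these data known, so no list is independent support. Genes were named by rule. The rule took the 12 higher and 12 lower promoters called under all 3 scalings whose interval bound lay farthest from 0. It added up to 4 called members of each list, or its highest and lowest member of mean count at least 50, 32 genes of the heart literature, and those passing the additive fit. A further 23 genes, and list members cited beyond the rule, were chosen after their values were seen. The list symbols Col12a1 and Cd68 had no promoter kept.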

Additional observations from a re-analysis of the deposited data

How the results depend on the processing

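Counts of calls depended on scaling and filter. Beside 1467 higher and 16 lower promoters, loess scaling gave 133 and 226, receptor-promoter scaling 103 and 12861, a mean count of at least 100 gave 42 and 4, 1.5-fold alone 2418 and 38, and 2-fold with the interval 682 and 0. Total promoter count gave 7 lower. With receptor-promoter scaling the median was −0.63 for all promoters and −0.50 for cardiomyocyte markers, and the other 27 list medians moved too. Under DESeq2 size factors, total count, loess scaling and the lowest-count RefSeq ID these 27 moved by less than the median counting error (the reach of the interval to one side) of their members. Of the named promoters called higher, Erg (−0.03) and Hand1 (−0.03) turned below 0 with receptor-promoter scaling. Promoters above 0 but not called turned below it too, among them Myh7 (0.47 to −0.15), Ttn (0.39 to −0.23) and Myh6 (0.27 to −0.35). Among 121 named promoters, 103 besides Erg and Hand1 moved with that scaling by more than their own counting error. With the lowest-count ID 4 moved, Gpm6a (1.38), Gsn (0.06), Kat2b (0.00) and Lrrc36 (0.45). The additive edgeR test gave 10 higher and 0 lower, against 0 and 1 with receptor-promoter scaling, and 2 higher with loess scaling, 3 with no filter and 2 with a mean count of at least 100, and the DESeq2 Wald test gave 0. The cause of these differences was not tested. No paired analysis was possible because each group is 1 library, and no library could be left out. At a mean count of 28.2 or less, counting error alone is wide, and only large ratios could be called.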
